A study of Drosophila melanogaster with 4 samples.

Results

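The 44 genes whose symbols begin with *eIF* encode the translation initiation factors of *Drosophila melanogaster*, and they were followed here in larvae that lack zygotic HP1a. Membership went by symbol, on all chromosomes, among 13494 genes with values, but this gene list was chosen with earlier results of these data known. The study examined how HP1a, the protein that binds methylated histone H3 lysine 9 in heterochromatin, affects transcription, mainly on chromosome 4, and RNA-seq was its readout of expression. RNA from whole late larvae (the L3 stage) was sequenced in 4 libraries, 2 of each genotype. The HP1a mutant larvae carried a different mutant allele of the gene for HP1a on each homologue, *Su(var)205-04* on one and *Su(var)205-05* on the other, and were picked as offspring without GFP from parents that each carried 1 allele over a GFP balancer chromosome. Such larvae have HP1a only from their mothers. The wildtype larvae were of the Oregon R strain, so that the genotypes also differ in strain background. Stocks of both were kept at 25°C and 70% humidity. The labels give neither the sex of the larvae nor their number per library.

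Initiation factors bring the small ribosomal subunit, the initiator tRNA and the mRNA together. eIF2 carries the initiator tRNA and is recharged with GTP by eIF2B, eIF3 and eIF1 hold the small subunit open for scanning, and the eIF4F complex (the cap-binding protein eIF4E, the scaffold eIF4G and the helicase eIF4A) loads the 5′ end of the mRNA. In flies several of these proteins have paralogs encoded elsewhere in the genome, and *eIF4E3* and *eIF4G2* are known for their roles in male meiosis and sperm development. A group of 10 such paralogs, drawn up with earlier results of these data known, is called second copies here. It holds *eIF3d2*, *eIF3f2*, *eIF3g2*, *eIF4E3*, *eIF4E4*, *eIF4E5*, *eIF4E6*, *eIF4E7*, *eIF4G2* and *eIF4H2*, set against *eIF3d1*, *eIF3f1*, *eIF3g1*, *eIF4E1*, *eIF4G1* and *eIF4H1* as their partners. The pairing of *eIF4H2* with *eIF4H1* was added after the values were seen. *eIF4EHP*, another cap-binding relative, was counted with the other genes.

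Levels are FPKM (fragments normalised to transcript length and to the depth of the library), as the authors deposited them, summed over the transcripts of a gene. The libraries held between 7320733 and 7656033 fragments, as implied by the bounds that accompany each FPKM. The gene for HP1a, *Su(var)205*, had FPKM of 27.8 and 20.1 in the HP1a mutant libraries, against 125 and 137 in the wildtype libraries. The median FPKM of the 9404 tested genes was 8.36 and 7.05 in the HP1a mutant and 14.2 and 15.01 in wildtype, and their median log2 fold change was -0.84. Therefore changes are also given after rescaling the libraries to the same median FPKM, where the median gene lies at -0.02. *Su(var)205* had a log2 fold change of -2.42 (limma adjusted p = 0.0027) and of -1.52 after rescaling (adjusted p = 0.0048). Sums over tissue marker lists differed widely. Salivary glue genes summed to 75.0 and 484 FPKM in the HP1a mutant and 49634 and 53125 in wildtype, and muscle genes to 12358 and 10730 in the HP1a mutant and 2229 and 2555 in wildtype.

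The main pattern among the initiation factors was a split between the second copies, grouped with earlier results known, and the rest. The second copies were far lower in the HP1a mutant, whereas the other 34 genes differed less between genotypes. The mean level of a second copy in the HP1a mutant was between 4.01% (*eIF4E4*) and 33.5% (*eIF4E3*) of its mean in wildtype, with a median of 15.01% over the 10 genes. For the other 34 genes this share ran between 43.4% (*eIF2Bdelta*) and 99.7% (*eIF2beta*), with a median of 71.5%. *eIF4H2*, whose pairing was made with its values known, stood at 10.4%. *eIF4EHP*, the cap-binding relative counted with the other genes, stood at 59.9%. In wildtype the second copies had a median of 9.54 FPKM and the other genes 103 FPKM, and the levels overlapped, with *eIF4E4* at 38.4 FPKM and *eIF4EHP* at 14.0 FPKM.

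The genotypes were compared at genes with the Cufflinks status OK throughout and an average log2(FPKM + 1) of more than 1.4, with limma's moderated test on log2(FPKM + 1) and Benjamini-Hochberg adjustment over all tested genes at a false discovery rate (FDR) of 0.01. The pseudocount of 1 understates the change of low genes. Of the 44 members 41 were tested, and 9 passed, each of them lower in the HP1a mutant and none higher. Of all tested genes 34.6% passed as lower and 7.02% as higher. Of the 9, 8 were second copies and the remaining gene was *eIF2Bdelta*. Of these 8, *eIF3d2*, *eIF3f2*, *eIF4E4*, *eIF4E7* and *eIF4H2* were above the expression cutoff only through their wildtype level, and a gene of this kind had to differ in order to enter the test. At an FDR of 0.05, 19 members passed, again as lower, beside 55.3% of all tested genes. The log2 fold change was below 0 for each of the 41 tested members with FPKM as deposited, and for 77.3% of all tested genes. Its median over these 41 was -0.55, less far down than the median of -0.84 over all tested genes, and 28 of the 41 lay above that value. Under quantile normalization this order turned, with a median of -0.40 for the members and -0.06 for all tested genes. After rescaling, 3 members passed (*eIF4E4*, *eIF4E5* and *eIF4H2*), beside 10.2% of all tested genes as lower and 12.6% as higher. The log2 fold change was then above 0 for 29 of the 41 members and for 49.1% of all tested genes. After quantile normalization of the libraries *eIF4E4* and *eIF4E5* passed, beside 9.67% of all tested genes as lower and 11.1% as higher.

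**Figure D1:**
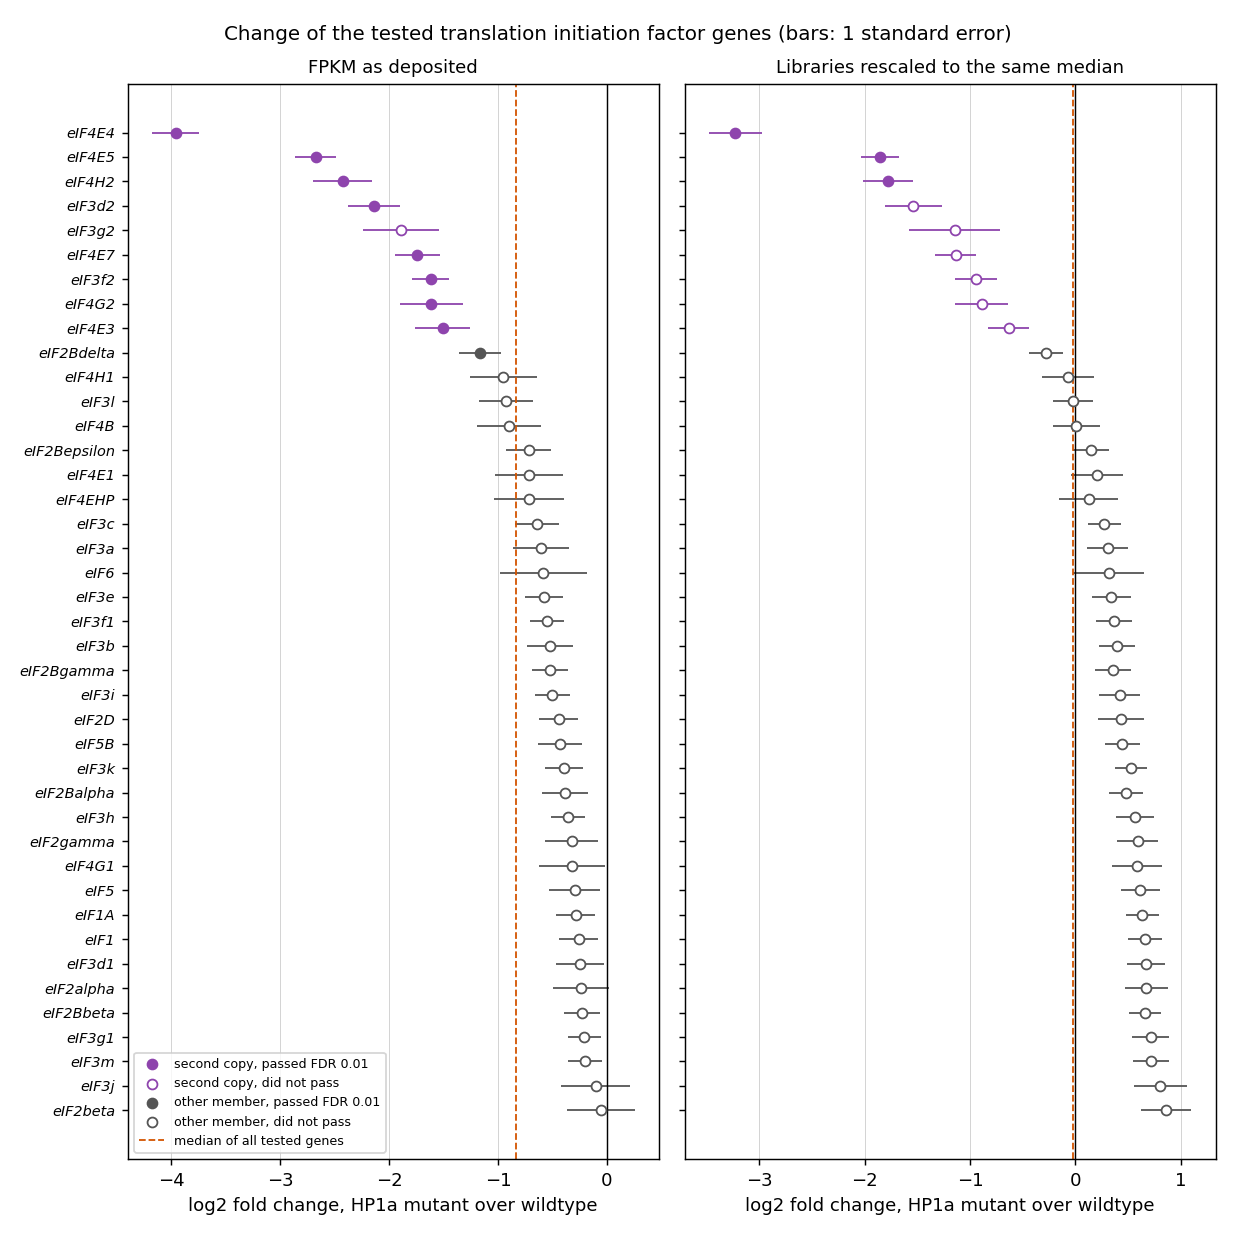
Log2 fold change (HP1a mutant over wildtype, log2(FPKM + 1) scale) of the 41 tested members, with FPKM as deposited on the left and after rescaling of the libraries on the right; points show the limma estimate, bars 1 standard error, filled points passed at FDR 0.01 and the dashed line is the median of all tested genes. The second copies stand below the median gene in both panels, while 29 members that are no second copy lie below 0 on the left and above 0 on the right.

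The level in single libraries shows the same split. For 38 of the 44 genes both HP1a mutant libraries were lower than both wildtype libraries, for none were both higher, and in 6 (*eIF2alpha*, *eIF2beta*, *eIF3d1*, *eIF3j*, *eIF4G1* and *eIF6*) the genotypes overlapped. Among all genes with a value above 0, 66.0% were lower without overlap. After rescaling, 11 members were lower without overlap and 25 higher, beside 40.1% and 33.3% of all genes, and the 11 were the 10 second copies and *eIF2Bdelta*. With 2 libraries against 2, an exact permutation test of a single gene cannot give a p under 0.333.

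**Figure D2:**
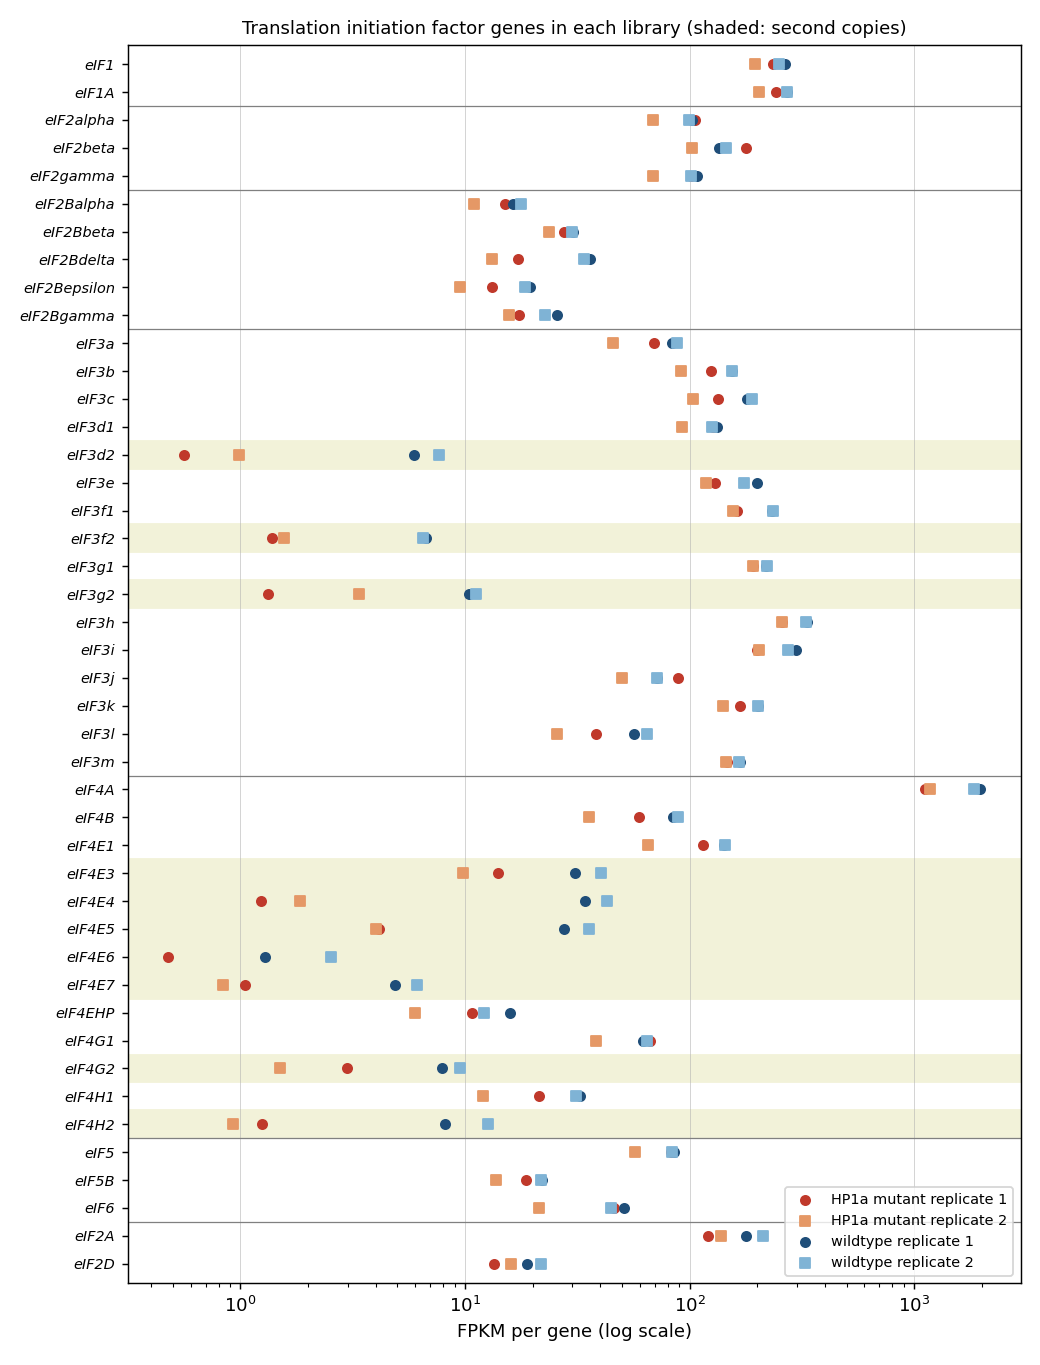
FPKM (log axis) of each of the 44 members in the 4 libraries, ordered by role, with the second copies shaded. The HP1a mutant points of the second copies lie left of their wildtype points, those of most other members lie close to them, and *eIF4E6* has no point in HP1a mutant replicate 2 because it is listed at 0 there.

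The cap-binding family held *eIF4E4*, the member with the largest fall. eIF4E1 is the main cap-binding protein of the fly, and *eIF4E1* had FPKM of 115.02 and 65.3 in the HP1a mutant against 142 and 143 in wildtype. Its log2 fold change of -0.71 (SE 0.31, limma adjusted p = 0.106) did not pass, and it was 0.20 after rescaling. Both HP1a mutant libraries were lower than wildtype, but they lay further apart from each other than the wildtype libraries did. *eIF4E4* (chromosome 3L, 6657323 to 6658741 in genome Release 5) encodes another cap-binding protein and had FPKM of 1.23 and 1.85 in the HP1a mutant, against 34.1 and 42.7 in wildtype. It fell by 3.96 on the log2 scale (SE 0.22, limma adjusted p = 0.0021), and by 3.23 after rescaling (adjusted p = 0.0028). Behind these levels stood 9 and 13 fragments in the HP1a mutant and 230 and 295 in wildtype.

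*eIF4E5* (chromosome 3L, 7887980 to 7889114) had FPKM of 4.15 and 4.02 in the HP1a mutant, against 27.7 and 35.6 in wildtype. It fell by 2.67 (SE 0.19, limma adjusted p = 0.0023) and by 1.85 after rescaling (adjusted p = 0.0037). For both *eIF4E4* and *eIF4E5* the genotypes were far apart and the replicates of each genotype were close. *eIF4E3* (chromosome 3L, 8222333 to 8223668), which acts in spermatocytes, was the most abundant of the second copies in the HP1a mutant, with FPKM of 14.0 and 9.83 there against 30.9 and 40.1 in wildtype. It fell by 1.51 (SE 0.25, limma adjusted p = 0.0081), and after rescaling its log2 fold change of -0.63 did not pass (adjusted p = 0.0584). *eIF4E7* (chromosome X, 1052660 to 1056423) had FPKM of 1.05 and 0.837 in the HP1a mutant, against 4.89 and 6.14 in wildtype. It fell by 1.74 (SE 0.21, limma adjusted p = 0.0039), with a rescaled log2 fold change of -1.14 (adjusted p = 0.0123). The lower level of *eIF4E7* thus rested on 13 and 10 fragments in the HP1a mutant, beside 56 and 72 in wildtype.

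*eIF4E6* (chromosome 3R, 24852161 to 24852896) was under the expression cutoff and was not tested. Its FPKM were 0.477 and 0 in the HP1a mutant, against 1.29 and 2.52 in wildtype. The direction was that of its relatives, at a level too low for a statement about its size. The last cap-binding relative, eIF4EHP, competes for caps and represses translation of mRNAs such as *caudal* in the embryo. *eIF4EHP* had FPKM of 10.8 and 5.99 in the HP1a mutant and 15.8 and 12.2 in wildtype, and its log2 fold change of -0.71 (SE 0.32, limma adjusted p = 0.110) did not pass and was 0.13 after rescaling. Summed over *eIF4E3* to *eIF4E7*, these 5 genes made up 15.4% and 20.2% of the cap-binding FPKM (their own sum plus *eIF4E1*) in the HP1a mutant and 41.0% and 47.0% in wildtype.

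The scaffold genes differed from each other. eIF4G1 is the general scaffold of eIF4F, and its gene is the only member on chromosome 4 (935911 to 951347), the chromosome that HP1a coats. *eIF4G1* had FPKM of 66.3 and 38.3 in the HP1a mutant, against 61.8 and 64.7 in wildtype. HP1a mutant replicate 1 was above both wildtype libraries and replicate 2 below them. The log2 fold change was -0.32 (SE 0.30, limma adjusted p = 0.389) and 0.59 after rescaling (adjusted p = 0.109), and the call rested on 1 library. Without HP1a mutant replicate 1 it was -0.71 and passed (adjusted p = 0.0095), and without HP1a mutant replicate 2 it was 0.07. Its main transcript took 95.0% and 90.7% of the gene's FPKM in the HP1a mutant, against 83.1% and 81.0% in wildtype, as Cufflinks divided the fragments.

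*eIF4G2* (chromosome 3R, 19635550 to 19644364), the scaffold needed for meiosis in spermatocytes, had FPKM of 2.98 and 1.51 in the HP1a mutant, against 7.88 and 9.47 in wildtype. It fell by 1.61 (SE 0.29, limma adjusted p = 0.0098), the passing value nearest to the threshold, and the call did not hold after rescaling (-0.89, adjusted p = 0.0463), with a pseudocount of 0.1 (adjusted p = 0.0134), without a filter on low values (0.0143), with a mean FPKM above 5 (0.0139) or with genes of any status (0.01005). Its locus overlaps that of *CG33111*. *eIF4H2* (chromosome 3R, 26551809 to 26553719), a copy of the gene for the helicase cofactor eIF4H, had FPKM of 1.24 and 0.930 in the HP1a mutant, against 8.13 and 12.7 in wildtype. It fell by 2.43 (SE 0.27, limma adjusted p = 0.0035) and by 1.78 after rescaling (adjusted p = 0.0070). Its partner *eIF4H1* had FPKM of 21.4 and 12.0 in the HP1a mutant and 32.5 and 31.3 in wildtype, and its log2 fold change of -0.95 (limma adjusted p = 0.0490) did not pass and was -0.07 after rescaling.

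*eIF4A*, the gene for the helicase, was the most abundant member, with FPKM of 1124 and 1178 in the HP1a mutant, against 1963 and 1848 in wildtype. Cufflinks gave it the status FAIL in all 4 libraries, so it was not among the tested genes. In a fit over genes of any status, where 34.1% passed as lower and 6.96% as higher, its log2 fold change was -0.73 (limma adjusted p = 0.0172), and with rescaling 0.20. *eIF4B*, the gene for a helicase cofactor, is listed by the files on the heterochromatic scaffold 2RHet (2901752 to 2917318), while the later Release 6 assembly of the reference places it on chromosome 3L. *eIF4B* had FPKM of 59.6 and 35.5 in the HP1a mutant, against 84.6 and 88.8 in wildtype. Its log2 fold change of -0.90 (SE 0.29, limma adjusted p = 0.0494) did not pass, was near that of the median gene, and was 0.01 after rescaling.

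eIF3, the largest factor, is a scaffold of many subunits on the small ribosomal subunit. 16 members encode its subunits, and 2 of them passed as lower, beside 34.6% of all tested genes. These were the second copies *eIF3d2* and *eIF3f2*, both above the expression cutoff only through their wildtype level. *eIF3d2* (chromosome 3R, 8018425 to 8020733) had FPKM of 0.560 and 0.988 in the HP1a mutant, against 5.94 and 7.63 in wildtype. It fell by 2.14 (SE 0.24, limma adjusted p = 0.0035), with 10 and 17 fragments in the HP1a mutant libraries and 98 and 129 in the wildtype libraries. *eIF3f2* (chromosome 2R, 2088300 to 2089461) had FPKM of 1.38 and 1.57 in the HP1a mutant, against 6.67 and 6.51 in wildtype. It fell by 1.62 (SE 0.17, limma adjusted p = 0.0033), with 11 and 12 fragments in the HP1a mutant and 49 and 49 in wildtype. After rescaling neither passed, with log2 fold changes of -1.54 (adjusted p = 0.0132) for *eIF3d2* and -0.94 (adjusted p = 0.0211) for *eIF3f2*.

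*eIF3g2* (chromosome 3R, 16233987 to 16234959) had FPKM of 1.33 and 3.37 in the HP1a mutant, against 10.4 and 11.2 in wildtype. The HP1a mutant libraries were both lower but far from each other, and the log2 fold change of -1.89 (SE 0.35, limma adjusted p = 0.0105) missed the threshold. It passed with a pseudocount of 5, where it was -1.12 (adjusted p = 0.0059), and after rescaling it was -1.14 (adjusted p = 0.0945). The partners of these copies were much more abundant and did not pass. *eIF3d1* had FPKM of 127 and 92.6 in the HP1a mutant and 133 and 125 in wildtype, *eIF3f1* 163 and 155 in the HP1a mutant and 233 and 234 in wildtype, and *eIF3g1* 191 and 192 in the HP1a mutant and 220 and 222 in wildtype. None of the 13 eIF3 genes that are no second copy passed. Their log2 fold changes ran from -0.93 (*eIF3l*, limma adjusted p = 0.0294) to -0.10 (*eIF3j*, adjusted p = 0.784), with a median of -0.50. After rescaling 12 of the 13 were above 0, beside 49.1% of all tested genes. Their median was then 0.42, and the exception was *eIF3l* at -0.02.

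**Figure D3:**
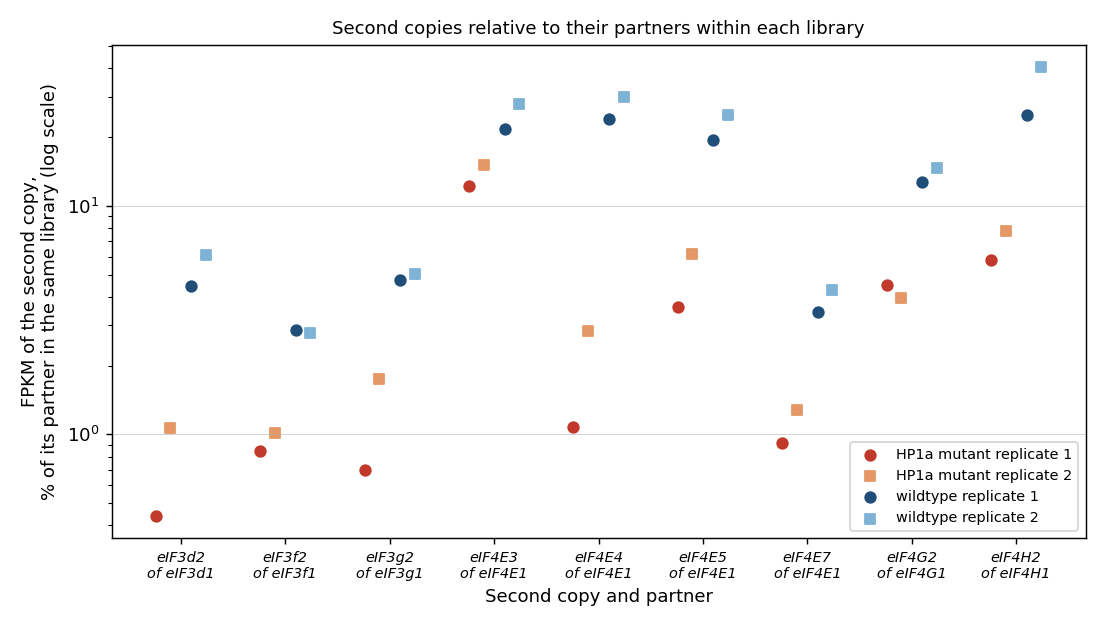
FPKM of 9 second copies as a percentage of the FPKM of the partner in the same library (log axis), for the 2 HP1a mutant and the 2 wildtype libraries; *eIF4E6* is left out because it is listed at 0 in HP1a mutant replicate 2. In each of the 9 pairs both HP1a mutant points lie below both wildtype points.

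A ratio within a library does not change when all values of that library are multiplied by the same factor, as in the rescaling. For each of the 10 pairs, the second copy took a smaller percentage of its partner's FPKM in both HP1a mutant libraries than in both wildtype libraries. The pairs were chosen with earlier results known, and how many other genes were lower relative to these partners was not counted. The 6 partners had a median log2 fold change of -0.44, less far down than the -0.84 of all tested genes. *eIF4E4* reached 1.07% and 2.83% of *eIF4E1* in the HP1a mutant, against 23.96% and 29.8% in wildtype, and the mean percentage was 13.8 times higher in wildtype. *eIF4E3* had the smallest difference, with 12.2% and 15.1% of *eIF4E1* in the HP1a mutant, against 21.7% and 28.0% in wildtype, a ratio of 1.82. *eIF4H2* reached 5.80% and 7.76% of *eIF4H1* in the HP1a mutant and 25.0% and 40.4% in wildtype. Since *eIF4E1* is the partner in 5 pairs, the pairs are not independent. Quantile normalization can change such ratios. Under it *eIF3f2* had a log2 fold change of -0.44 beside -0.63 for *eIF3f1*, and *eIF4E7* had -0.55 beside -0.69 for *eIF4E1*. The other tested copies fell further than their partners there. Second copies made up 0.632% and 0.631% of the summed FPKM of the 44 members in the HP1a mutant, against 2.25% and 2.89% in wildtype, so that they were a small part of the initiation factor mRNA in both genotypes.

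The second copies also differ from their partners in gene structure and position. In the reference annotation 9 of the 10 have fewer exons than the partner, by the transcript with the most exons, the exception being *eIF3f2* with 2 exons beside 1 in *eIF3f1*. The coding sequences of *eIF3d2* and *eIF3d1* (1653 and 1680 bases), *eIF3f2* and *eIF3f1* (858 and 840 bases) and *eIF3g2* and *eIF3g1* (819 and 807 bases) are of similar length. How reads that match more than 1 paralog were counted is not given in the sources used here, so values of close relatives could share reads. Of the 9 members that passed, 7 have a locus that overlaps no other gene, and *eIF4G2* and *eIF2Bdelta* overlap *CG33111* and *Mtmr6*.

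Markers of the testis were lower together with the second copies, as were those of some other tissues. Over a list of 15 testis genes, the summed FPKM was 61.4 and 57.0 in the HP1a mutant and 461 and 549 in wildtype. All 15 were lower in both HP1a mutant libraries, while 66.0% of all genes with a value above 0 were lower without overlap. Of the 15, 10 were tested, and 6 of these passed as lower, beside 34.6% of all tested genes. The median log2 fold change of the 10 was -1.98 (-1.27 after rescaling). Among the 6, *twe* (0.665 and 1.03 FPKM in the HP1a mutant, 5.60 and 6.74 in wildtype) was above the expression cutoff only through its wildtype level. Of the defining markers *can* was listed at 0 in HP1a mutant replicate 2, and none was at 0 in both HP1a mutant libraries. *betaTub85D*, the testis beta tubulin, had FPKM of 10.1 and 12.1 in the HP1a mutant and 95.0 and 119 in wildtype. The second copies summed to 28.4 and 24.9 FPKM in the HP1a mutant and 138 and 175 in wildtype. Sums over other lists differed as well, with imaginal disc genes at 10.99 and 11.6 FPKM in the HP1a mutant and 36.1 and 38.4 in wildtype, and neural genes at 14.3 and 13.6 in the HP1a mutant and 34.2 and 35.2 in wildtype. All 6 imaginal disc genes, 5 of the 6 neural genes and all 6 salivary gland genes were lower without overlap. Of those tested, 2 of 4 imaginal disc, 2 of 2 neural and 5 of 5 salivary gland genes passed as lower. All 8 muscle genes were higher without overlap, beside 2014 of all 13494 genes. Of the 6 muscle genes tested 4 passed as higher, beside 7.02% of all tested genes. The 8 germline genes were too low to be tested and did not move together, with 4 lower without overlap and *vas* higher (0.546 and 0.510 FPKM in the HP1a mutant, 0.354 and 0.288 in wildtype), and their sum of 4.04 and 3.76 FPKM in the HP1a mutant, against 12.4 and 12.3 in wildtype, was carried by *ovo*. In RNA of whole larvae, fewer cells of a type and less RNA per cell cannot be told apart, and the part of tissue composition or stage in the level of the second copies was not tested.

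**Figure D4:**
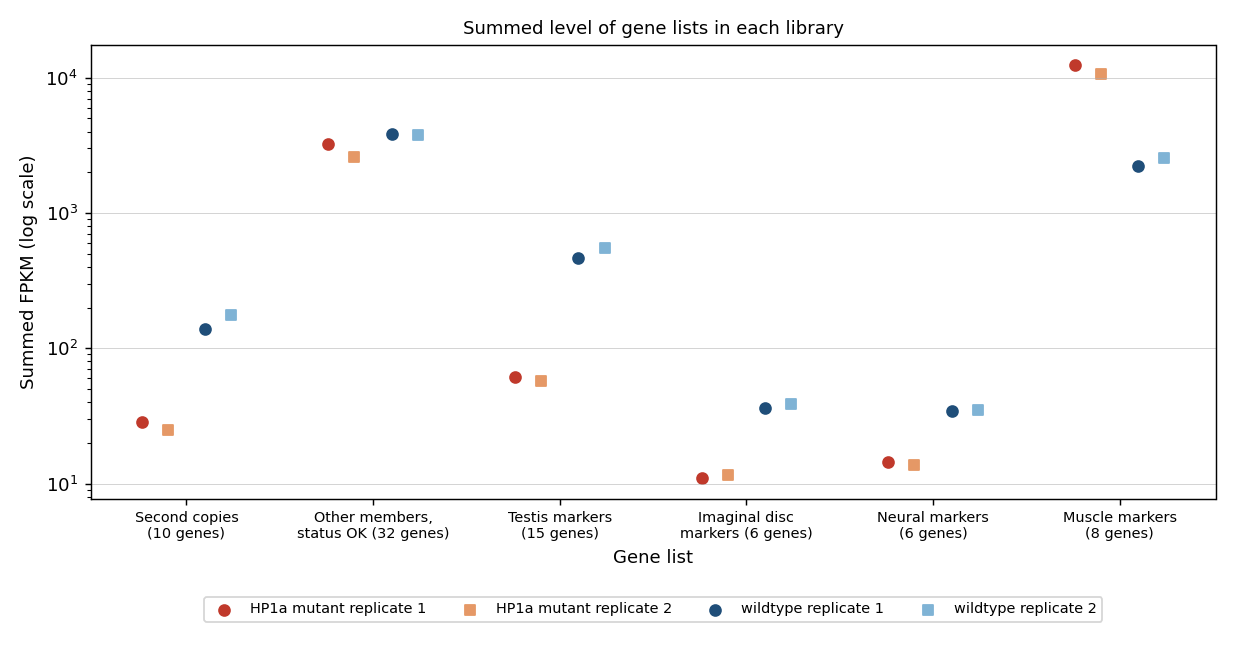
Summed FPKM (log axis) of the 10 second copies, of the 32 other members with status OK in all libraries, and of 4 marker lists, in the 2 HP1a mutant and the 2 wildtype libraries. Second copies and testis markers are each several times lower in both HP1a mutant libraries, and imaginal disc and neural markers are lower as well. The other members differ less, and muscle markers are higher in the HP1a mutant.

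eIF2, the carrier of the initiator tRNA, is encoded by 3 members, and none passed. *eIF2alpha*, the gene for the subunit that stress kinases phosphorylate, had FPKM of 106 and 68.8 in the HP1a mutant, against 103 and 99.0 in wildtype, with a log2 fold change of -0.24 (limma adjusted p = 0.442). *eIF2beta* had FPKM of 178 and 103 in the HP1a mutant, against 135 and 146 in wildtype, and its log2 fold change of -0.06 (adjusted p = 0.883) was the one nearest to 0 among the tested members. In both genes the HP1a mutant replicates lay on either side of the wildtype libraries. After rescaling the log2 fold changes of the 3 genes were between 0.59 and 0.86, and none passed.

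*eIF2gamma* (chromosome 3R, 11083656 to 11089196) shares its locus with *Su(var)3-9*, the gene for a histone methyltransferase that makes the mark HP1a binds. *eIF2gamma* had FPKM of 101 and 68.9 in the HP1a mutant, against 108 and 102 in wildtype, and its log2 fold change of -0.32 (SE 0.24, limma adjusted p = 0.286) did not pass. *Su(var)3-9* had FPKM of 2.73 and 2.10 in the HP1a mutant, against 7.99 and 8.47 in wildtype. It fell by 1.44 (SE 0.18, limma adjusted p = 0.0045), and after rescaling its value of -0.70 did not pass (adjusted p = 0.0265). The difference between the 2 genes was not tested, and Cufflinks divided the fragments of exons that they share.

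eIF2B, which exchanges GDP for GTP on eIF2, is encoded by 5 members at lower levels, and *eIF2Bdelta* passed. *eIF2Bdelta* (chromosome 2R, 19274016 to 19276575) had FPKM of 17.2 and 13.2 in the HP1a mutant, against 35.9 and 33.96 in wildtype. It fell by 1.16 (SE 0.19, limma adjusted p = 0.0080) and was the only member passing that is no second copy. The call did not hold after rescaling (-0.28, adjusted p = 0.228) or without a filter on low values (adjusted p = 0.0106). The other 4 subunits of the complex had log2 fold changes between -0.72 (*eIF2Bepsilon*) and -0.23 (*eIF2Bbeta*). *eIF2Bbeta* had FPKM of 27.7 and 23.6 in the HP1a mutant and 30.2 and 29.99 in wildtype, so that subunits of 1 complex lay between 43.4% and 85.1% of their wildtype level.

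The factors of scanning and of subunit joining did not pass. *eIF1*, which guards start codon choice, had FPKM of 236 and 196 in the HP1a mutant and 265 and 250 in wildtype (log2 fold change -0.26, limma adjusted p = 0.259), and *eIF1A* 243 and 203 in the HP1a mutant and 271 and 272 in wildtype (-0.29, adjusted p = 0.216). *eIF5*, the gene for the GTPase activator of eIF2, had a log2 fold change of -0.30, *eIF5B*, the gene for the subunit-joining GTPase, -0.43, and *eIF6*, the gene for a factor that keeps the large subunit apart, -0.58. Each of these was above 0 after rescaling. *eIF6* had FPKM of 46.2 and 21.3 in the HP1a mutant and 50.9 and 44.6 in wildtype, the widest spread between replicates among the tested members (SE 0.40). *eIF2D*, which delivers tRNA without eIF2, had a log2 fold change of -0.44 (adjusted p = 0.0861). *eIF2A* had the status FAIL in 2 libraries and was not tested in the main fit. Its FPKM were 121 and 138 in the HP1a mutant, against 179 and 212 in wildtype.

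The spread between replicates was uneven. HP1a mutant replicate 2 was below replicate 1 for 34 of the 44 members, whereas wildtype replicate 2 was below replicate 1 for 21. Summed over the 44 members, FPKM came to 4498 and 3943 in the HP1a mutant and 6139 and 6032 in wildtype. The count of members that passed rested on single libraries. Without HP1a mutant replicate 1, 20 members passed as lower, beside 41.3% of all tested genes, and without HP1a mutant replicate 2, 7 members, beside 30.5%. Without wildtype replicate 1 or 2 no gene at all passed limma's adjusted threshold, and 10 members in each case were under an unadjusted p of 0.05, beside 49.9% and 48.8% of all tested genes.

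Other genes of the translation pathway were counted in the same fit, in which 34.6% of all tested genes passed as lower. Among 25 initiation partners and regulators, 3 passed as lower and none as higher, with a median log2 fold change of -0.61. They were *NAT1*, the gene for an eIF4G relative (FPKM 37.6 and 24.2 in the HP1a mutant, 105 and 112 in wildtype, log2 fold change -1.81, limma adjusted p = 0.0057), *4E-T*, the gene for an eIF4E-binding repressor on chromosome 4 (10.3 and 10.3 in the HP1a mutant, 29.9 and 30.2 in wildtype, -1.46, adjusted p = 0.0031), and *Paip2*, the gene for an inhibitor of poly(A)-binding protein (-1.33, adjusted p = 0.0072). None of them passed after rescaling. *Thor*, the fly 4E-BP gene, had FPKM of 45.1 and 22.2 in the HP1a mutant and 46.8 and 59.4 in wildtype and did not pass (adjusted p = 0.165). Among 10 elongation and termination genes *eEF1alpha2*, a second copy of the main elongation factor gene, passed as lower (FPKM 13.5 and 13.3 in the HP1a mutant, 59.8 and 53.8 in wildtype, limma adjusted p = 0.0024; after rescaling -1.11, adjusted p = 0.0114, which did not pass), while *eEF1alpha1* had a log2 fold change of -0.16. After rescaling *eEF2* passed in its place, as higher (1.16, adjusted p = 0.0077).

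Of 92 cytoplasmic ribosomal protein genes 86 were tested, and 7 passed, all as lower, with a median log2 fold change of -0.23 (0.69 after rescaling). The 7 were *RpL22* and the 6 copies *RpL10Aa*, *RpL22-like*, *RpS10a*, *RpS19b*, *RpS28-like* and *RpS5b*. Other copies did not pass, such as *RpS14b* (log2 fold change -0.35, limma adjusted p = 0.137), *RpS15Ab* (-0.15, adjusted p = 0.480) and *RpL37-2* (-2.18, adjusted p = 0.0150). *RpS19b*, for instance, had FPKM of 3.19 and 1.78 in the HP1a mutant and 17.5 and 16.1 in wildtype. After rescaling *RpS10a*, *RpS19b* and *RpS28-like* still passed as lower. *RpL22-like*, *RpS10a* and *RpS28-like* were above the expression cutoff only through their wildtype level, so they had to differ in order to enter the test. The median log2 fold change of the initiation factors that are no second copy, -0.44 (0.44 after rescaling), lay between the median of the ribosomal protein genes and that of all tested genes.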

How the data were processed

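RNA of late larvae, depleted of rRNA, was sequenced on Illumina in 4 libraries. The submitters' processing notes name TopHat and Cufflinks. The sources used here do not give versions, strand handling or the treatment of multiply mapping reads. The authors deposited FPKM per RefSeq transcript with bounds and a status, not pooled, on genome Release 5; starts were converted to count from 1. Of 22608 transcripts in each library, 1220 without a gene in the reference and 267 listed at several places were left out, and FPKM were summed per gene. The reference, a later assembly, gave names, exon numbers and coding lengths, and each of the 44 symbols matched. Tests used limma 3.58.1 (R 4.3.3) with a trend of the variance, two-sided, over 9404 genes, and were tested on simulated data. Tables and plots were made with Python 3.11.15, pandas 2.3.3, numpy 2.4.6 and matplotlib 3.10.9. Implied fragments were taken from the bounds, read as 2 counting errors, and were whole within 0.02 for 95.1% to 96.4% of isolated low transcripts in each library. Fragment numbers cover counting error only. The labels do not say whether replicates were separate cultures, so p-values measure the spread between these libraries.

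Values by library were given for members that passed, for the cap-binding, scaffold and helicase genes, for the eIF3 pairs and for examples of each role. Members, pairs and lists were chosen with earlier results of these data known. Marker lists of 15 testis, 8 germline, 6 salivary gland, 6 fat body, 8 muscle, 6 neural, 6 imaginal disc and 6 stress genes were summed. Alternatives were pseudocounts, filters, status, rescaling, quantile normalization, no variance trend, FDR 0.05, a replicate block and leaving out each library. Sequences are not reported here.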

Additional observations from a re-analysis of the deposited data

How the results depend on the processing

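The main limit is scale. Rescaling to the same median turned the log2 fold changes of 29 members above 0: *eIF1* 0.66, *eIF1A* 0.64, *eIF2alpha* 0.68, *eIF2beta* 0.86, *eIF2gamma* 0.59, *eIF2Balpha* 0.48, *eIF2Bbeta* 0.67, *eIF2Bgamma* 0.36, *eIF2Bepsilon* 0.15, *eIF2D* 0.43, *eIF3a* 0.31, *eIF3b* 0.40, *eIF3c* 0.28, *eIF3d1* 0.67, *eIF3e* 0.34, *eIF3f1* 0.37, *eIF3g1* 0.71, *eIF3h* 0.56, *eIF3i* 0.42, *eIF3j* 0.81, *eIF3k* 0.53, *eIF3m* 0.72, *eIF4B* 0.012, *eIF4E1* 0.20, *eIF4EHP* 0.13, *eIF4G1* 0.59, *eIF5* 0.62, *eIF5B* 0.45 and *eIF6* 0.32. The median of all 41 tested members turned to 0.36. Quantile normalization did so for 8: *eIF2Balpha* 0.35, *eIF2Bbeta* 0.27, *eIF2Bgamma* 0.088, *eIF2Bepsilon* 0.0056, *eIF2D* 0.23, *eIF3j* 0.11, *eIF4EHP* 0.14 and *eIF5B* 0.22. Relative to the median gene the members' median was 0.28, but -0.34 under quantile normalization.

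The 9 members that passed became 5 with a mean FPKM above 5, 3 with rescaling, 2 with quantile normalization and 19 at FDR 0.05, and 0 to 20 with 1 library left out. At FDR 0.05 only the threshold differed, and in some settings fewer libraries or genes entered. What caused the other changes was not tested. For initiation partners the count of 3 became 0, 1 and 9 under rescaling, quantile normalization and FDR 0.05 (0 to 9 with 1 library left out), for elongation genes the count of 1 became 2 at FDR 0.05 (0 to 4), and under rescaling 1 was *eEF2*, higher, in place of *eEF1alpha2*, lower, and for ribosomal protein genes the count of 7 became 3, 3 and 12 (0 to 12). Over all genes 3910 became 2141, 1954 and 6298 (0 to 4672). Leaving out 1 library gave a median of -0.71 to -0.36, and of 0.24 to 0.38 relative to the median gene. *Su(var)205* ranged from -2.64 to -2.20 and did not pass without wildtype replicate 1 (-2.49) or 2 (-2.36). Without HP1a mutant replicate 2 the log2 fold change was above 0 for *eIF2alpha* (-0.55 to 0.065 over the libraries left out), *eIF2beta* (-0.45 to 0.34), *eIF3j* (-0.51 to 0.30) and *eIF4G1* (-0.71 to 0.067), and *eIF4E3*, *eIF4G2* and *eIF4H2* no longer passed.

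The labels link same-numbered libraries only by their number, and the correlation of the replicate differences was 0.03 over 9404 genes. With the replicate number as a block, 7 members and 2975 genes passed. *eIF2Bdelta* (adjusted p = 0.0133), *eIF4E3* (0.0127) and *eIF4G2* (0.0125) did not pass, and *eIF3g2* did (0.0073). Of the 9 second copies with a fragment number in both HP1a mutant libraries, 7 had 30 or fewer in each, so their size of change is imprecise.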

Other observations

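For several members the deposited division of FPKM between transcripts differed far more between replicates of 1 genotype than the gene's sum did. *eIF5* had FPKM of 82.5 and 57.1 in the HP1a mutant and 85.7 and 83.5 in wildtype. One of its 7 transcripts took 49.2% and 49.0% of the gene's FPKM in the HP1a mutant and 49.1% in wildtype replicate 1, but 0.94% in wildtype replicate 2. One *eIF2A* transcript took 5.68% and 86.1% of the gene's FPKM in the HP1a mutant and 11.7% and 79.0% in wildtype. The libraries with 86.1% and 79.0%, replicate 2 of each genotype, were those in which *eIF2A* had the status FAIL. Transcript levels of these genes were therefore not compared between genotypes.

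Including genes of any status, *eIF2A* had a log2 fold change of -0.59 (limma adjusted p = 0.0450), and 0.33 with rescaling, an alternative chosen after seeing the data. Without a filter on low values *eIF4E6* had a log2 fold change of -1.23 (limma adjusted p = 0.0338).

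Fat body genes summed to 30348 and 45528 FPKM in the HP1a mutant and 24247 and 22156 in wildtype. Of the 6 genes 4 were higher and 2 lower without overlap, beside 2014 higher and 8661 lower among all 13494 genes. *Fbp1* was lower, with 32.5 and 19.0 FPKM in the HP1a mutant against 4333 and 4127 in wildtype, and *Lsp2* had 2727 and 4433 FPKM in the HP1a mutant against 9321 and 7758 in wildtype. Stress genes summed to 1333 and 133 FPKM in the HP1a mutant and 3726 and 2690 in wildtype, with the HP1a mutant replicates further apart than those of wildtype. This sum was carried by *Hsp23* (221 and 40.7 FPKM in the HP1a mutant, 3067 and 2239 in wildtype), whereas *Hsp70Ab* was higher in the HP1a mutant libraries, at 346 and 15.3 FPKM against 11.8 and 5.62 in wildtype.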
